A study of Mus musculus with 24 samples.

Results

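Some transcripts that are abundant in astrocytes were followed through RNA-seq libraries of mouse microglia, the macrophages that live in the brain. The set is Aldoc, Slc1a2, Slc1a3, Gja1, Aqp4, Gfap, Clu, Mt3 and Sparcl1. It was taken by gene symbol, as the 9 members of a list of astrocyte genes, out of 20636 genes in each TPM table. All 9 were listed at both ages and all 9 had a mean of at least 1 TPM (transcripts per mega-transcript, a unit scaled for length and depth) over the 12 animals of each age.

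The libraries came from mice labelled C57BL/6J that differed in the gene 3110043O21Rik, which is the ortholog of human C9orf72. Wild type (WT), heterozygous knockout (HET) and homozygous knockout (HOM) animals were taken at 3 months and at 17 months, with 4 animals in each of the 6 groups. According to the protocols, the meninges were stripped off, the brain was dissociated with papain, myelin was depleted on beads and CD11b-positive cells were retained on magnetic beads. No Cre or transgene is named for any group, and how the knockout allele was made is not given in the sources used here. CD11b is a surface protein of myeloid cells, which astrocytes are not, and the sorted cells were labelled microglia. Animals are called by genotype and the number in the column headers.

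Astrocytes are star-shaped glia whose end feet wrap blood vessels and whose fine branches surround synapses. They clear glutamate from the synaptic cleft, pass ions and metabolites to each other through gap junctions, buffer water and potassium, and release lipid carriers and matrix proteins. When the brain is injured or ages, many of them make more of the intermediate filament protein GFAP. Microglia touch the same synapses, and microglial signals are known to change the state of astrocytes.

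Each of the 9 genes has a different place in that cell. Slc1a2 (GLT-1) and Slc1a3 (GLAST) encode the glutamate transporters of the glial membrane. Aldoc encodes the brain form of the glycolytic enzyme aldolase. Gja1 encodes connexin 43, the main astrocyte gap junction protein, and Aqp4 encodes the water channel of the end feet. Gfap encodes the filament protein. Clu encodes clusterin, a secreted chaperone also made by choroid plexus and other cells, Sparcl1 encodes hevin, a secreted matrix protein that is also made by endothelial cells, and Mt3 encodes a brain metallothionein that binds zinc and copper. In the GENCODE annotation of mm10 the genes span, with their strand, Slc1a2 chr2:102658659-102790784 (plus), Slc1a3 chr15:8634124-8710764 (minus), Aldoc chr11:78322968-78327781 (plus), Gja1 chr10:56377330-56402513 (plus), Gfap chr11:102887336-102900912 (minus), Clu chr14:65968483-65981547 (plus), Sparcl1 chr5:104079111-104113733 (minus) and Mt3 chr8:94152607-94154146 (plus).

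Because several of the members moved together across the libraries, the promoters of 3 of them with different behaviour are shown. Each is the stretch of 250 bases just before a RefSeq transcription start in GRCm38.p6 (mm10), written 5′ to 3′ on the gene's own strand. Capitals mark matches on either strand to TTCNNNGAA (STAT-like), to GGGCGG (GC box) or to TATAAA (known as the TATA box). Aldoc is shown for the second of its RefSeq starts, chr11:78323948-78324197 on the plus strand. Slc1a3 is shown for chr15:8710808-8711057 on the minus strand, and Gfap for chr11:102897201-102897450 on the minus strand. The Aldoc and Gfap windows lie inside the GENCODE spans of those genes, which open at an earlier start. Neither window overlaps an exon of the basic GENCODE set, but the end of the Aldoc window overlaps an exon of a retained-intron Aldoc transcript in the full set.
Aldoc: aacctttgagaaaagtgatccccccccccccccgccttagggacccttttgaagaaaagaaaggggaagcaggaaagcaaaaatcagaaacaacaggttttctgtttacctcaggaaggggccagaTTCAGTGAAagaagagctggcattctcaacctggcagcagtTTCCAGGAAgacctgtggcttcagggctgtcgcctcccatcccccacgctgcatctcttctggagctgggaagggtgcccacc
Slc1a3: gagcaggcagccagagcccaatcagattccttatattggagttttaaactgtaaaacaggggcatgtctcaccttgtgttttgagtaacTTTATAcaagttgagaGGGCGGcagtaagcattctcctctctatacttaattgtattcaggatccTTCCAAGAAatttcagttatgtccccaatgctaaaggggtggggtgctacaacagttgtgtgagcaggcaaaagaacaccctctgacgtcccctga
Gfap: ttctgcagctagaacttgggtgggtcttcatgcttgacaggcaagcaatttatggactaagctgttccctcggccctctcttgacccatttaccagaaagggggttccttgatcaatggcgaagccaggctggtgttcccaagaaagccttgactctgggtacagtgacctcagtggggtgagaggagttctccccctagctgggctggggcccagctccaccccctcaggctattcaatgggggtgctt
The Aldoc window held 2 STAT-like matches, which do not overlap. The window of its other RefSeq start, chr11:78322823-78323072, overlaps an exon and is not shown. That window held no STAT-like match and 1 GC box. The Slc1a3 window held 1 STAT-like match, 1 GC box and 1 TATA box, and the Gfap window held none of the motifs. Over 32851 RefSeq windows of the same length, 7.02% held a STAT-like match, 32.7% a GC box and 12.4% a TATA box. The NFI palindrome was also searched on both strands and was present in 0.0365% of windows, none of them a member's. RefSeq entries were matched for 6 members, namely Slc1a2, Slc1a3, Aldoc, Gja1, Gfap and Mt3. The windows of Slc1a2, Gja1 and Mt3 held none of the motifs. A match of this kind describes the letters only, and no binding was measured here.

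The libraries differed in ways that touch every value below. The number of alignments given in the RPKM tables ran from 21.8 to 33.8 M (mega) at 3 months and from 16.7 to 46.4 M at 17 months, with group means rising from WT to HET to HOM at both ages. The labels give no sex, and read from Y-linked transcripts the 3-month HET animals were 4 males while the 17-month HET animals were 4 females. WT held 1 male and 3 females at both ages. HOM held 2 males and 2 females at 3 months, and 3 males and 1 female at 17 months. Depth and, in part, sex therefore cannot be told apart from genotype. 3110043O21Rik fell with genotype, from 22.8 ± 2.23 TPM in WT to 9.73 ± 1.75 in HET and 0.139 ± 0.0918 in HOM at 3 months (mean ± SD, n = 4). At 17 months it was at 14.9 ± 1.48, 7.20 ± 1.53 and 0.0360 ± 0.0158 TPM (SD, n = 4), and no group overlapped another at either age (exact permutation test, two-sided p = 0.0286, the smallest that 4 against 4 allows). All 12 microglia markers had a mean of at least 1 TPM at both ages and summed to between 31175 and 47626 TPM per library. Markers of other cells were present as well. Neutrophil markers summed to between 410 and 11106 TPM, with 11106 in HET-7796 and 10736 in HET-7791, and oligodendrocyte markers to between 426 and 6653 TPM, with 6653 in WT-7943.

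The members were a small share of these libraries. Summed, the 9 transcripts made up 195 to 726 TPM per library at 3 months and 251 to 785 TPM at 17 months. Levels at the 2 ages come from tables made separately and were not tested against each other. In bulk RNA, fewer cells of a type and less RNA per cell cannot be told apart, so a lower level below is a lower share of the library's transcripts and nothing more.

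TPM corrects for transcript length, so members can be ordered by it within an age. Sparcl1 had the highest median over the 12 animals, 76.0 TPM at 3 months and 96.4 TPM at 17 months. Slc1a3, Clu, Mt3 and Aldoc followed in that order at 3 months (65.0 to 40.4 TPM), and Clu, Mt3, Slc1a3 and Aldoc at 17 months (88.4 to 47.8 TPM). The ranges of these 5 overlapped one another at both ages. Slc1a2, Gja1, Gfap and Aqp4 formed a lower tier, with medians from 3.54 to 14.7 TPM at 3 months and from 3.30 to 13.7 TPM at 17 months, and Gja1 and Gfap overlapped in range at both ages. Aqp4 was the lowest member by median at both ages, between 1.14 and 7.53 TPM at 3 months and between 1.30 and 6.19 TPM at 17 months.

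**Figure D1:**
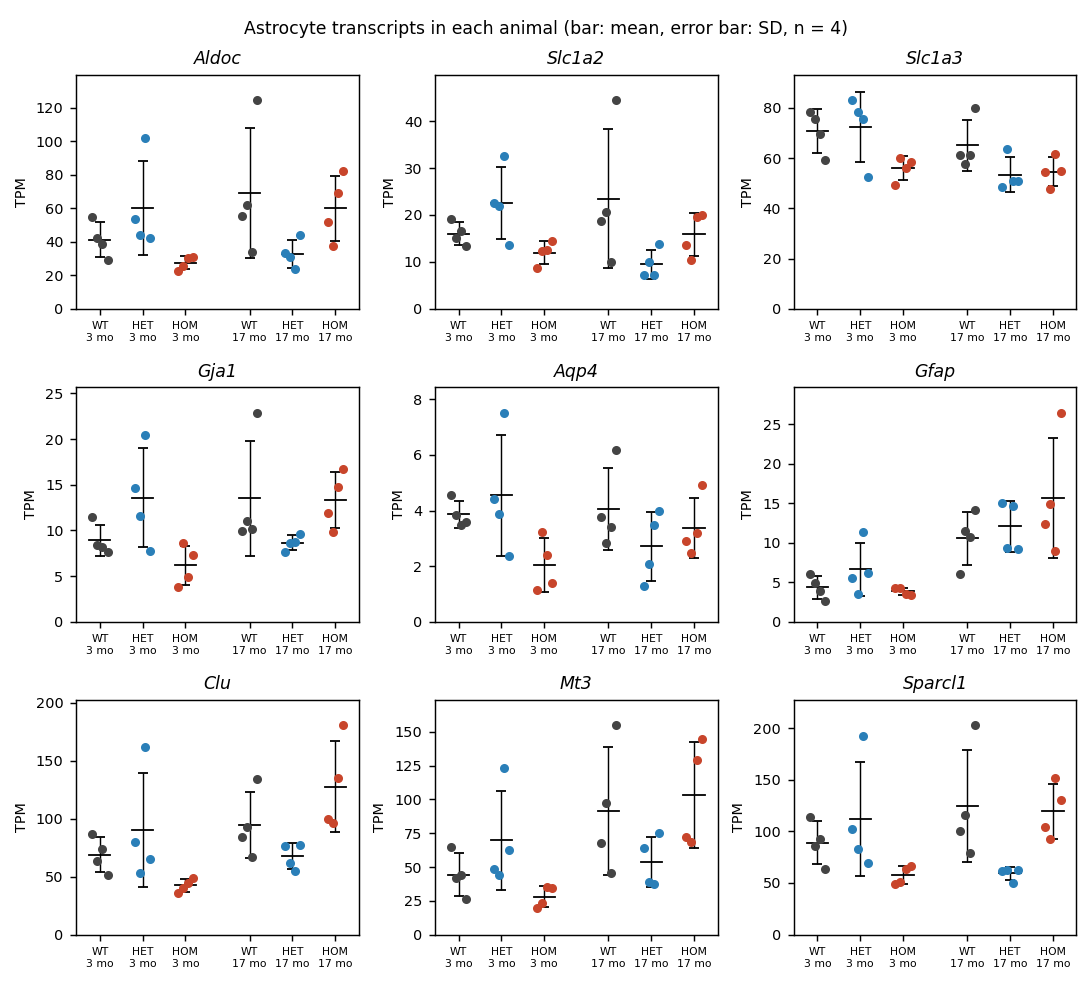
TPM of each of the 9 astrocyte transcripts (linear axis from 0) in every animal, by genotype and age in months; points are animals, and bars are group means with the SD of 4 animals. The highest 3-month point is HET-8304 for 8 of the 9 transcripts, and the highest 17-month point is WT-7943 for 7 of them.

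Glutamate transport came first. At 3 months Slc1a2 stood at 13.3, 15.01, 16.6 and 19.2 TPM in WT, at 13.7, 21.9, 22.5 and 32.5 TPM in HET and at 8.65, 12.3, 12.5 and 14.3 TPM in HOM. At 17 months it stood at 10.04, 18.7, 20.6 and 44.6 TPM in WT, at 7.13, 7.24, 9.94 and 13.7 TPM in HET and at 10.5, 13.6, 19.5 and 19.9 TPM in HOM. HOM animals were the low group at 3 months and HET animals at 17 months, and at both ages the ranges overlapped. Fitted with limma, HOM against HET was -0.83 at 3 months (log2 of TPM + 1, SE 0.22, Benjamini-Hochberg adjusted p = 0.356) and 0.68 at 17 months (SE 0.36, adjusted p = 0.448).

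Slc1a3, the other glutamate transporter, hardly varied by comparison. It stood at 59.1, 69.7, 75.7 and 78.45 TPM in WT, 52.3, 75.5, 78.45 and 83.3 TPM in HET and 49.4, 56.0, 58.6 and 60.2 TPM in HOM at 3 months. At 17 months the values were 57.7, 61.3, 61.4 and 80.1 TPM in WT, 48.5, 50.7, 50.8 and 63.6 TPM in HET and 47.7, 54.3, 54.8 and 61.8 TPM in HOM. All 6 groups overlapped with their neighbours of the same age. The highest animal was 1.68 times the lowest at either age, against 3.75-fold at 3 months and 6.25-fold at 17 months for Slc1a2. The within-genotype SD of Slc1a3 on the log2 scale was 0.213 at 3 months and 0.179 at 17 months, below that of each of the other 8 members at both ages.

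Aldoc, the aldolase, had its groups in the same order as Slc1a2. At 3 months it stood at 29.3, 38.7, 42.1 and 54.6 TPM in WT, at 42.2, 43.9, 53.6 and 101.8 TPM in HET and at 22.9, 25.4, 30.6 and 30.9 TPM in HOM. By 17 months it stood at 34.0, 55.7, 62.1 and 124.9 TPM in WT, at 23.9, 30.7, 33.2 and 44.1 TPM in HET and at 37.7, 51.5, 69.0 and 82.1 TPM in HOM. All 4 HOM animals lay below all 4 HET animals at 3 months, while at 17 months the groups overlapped and HET held the lowest 3 animals. HOM against HET was -1.03 at 3 months (SE 0.25, limma adjusted p = 0.342) and 0.82 at 17 months (SE 0.34, adjusted p = 0.313).

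Gja1, the gap junction gene, was lower in level and similar in shape. At 3 months it stood at 7.62, 8.18, 8.43 and 11.4 TPM in WT, at 7.76, 11.5, 14.6 and 20.5 TPM in HET and at 3.85, 4.93, 7.26 and 8.63 TPM in HOM. The 17-month animals stood at 9.97, 10.1, 11.0 and 22.9 TPM in WT, at 7.63, 8.63, 8.75 and 9.60 TPM in HET and at 9.78, 11.96, 14.8 and 16.7 TPM in HOM. At 17 months all 4 HET animals lay below all WT and all HOM animals, by a narrow margin. HOM against HET was -1.003 at 3 months (SE 0.27, limma adjusted p = 0.356) and 0.55 at 17 months (SE 0.23, adjusted p = 0.330). Aqp4 was close to the low limit of 1 TPM, and its HOM animals at 3 months (1.14, 1.40, 2.40 and 3.22 TPM) lay below all WT animals (3.48 to 4.57 TPM), with HOM against WT at -0.73 (SE 0.27, limma adjusted p = 0.176).

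Gfap, the filament gene, did not share the pattern closely. At 3 months it stood at 2.67, 3.85, 4.91 and 6.07 TPM in WT, at 3.48, 5.53, 6.20 and 11.3 TPM in HET and at 3.39, 3.502, 4.20 and 4.20 TPM in HOM. The same gene at 17 months stood at 6.02, 10.7, 11.5 and 14.1 TPM in WT, at 9.25, 9.26, 14.7 and 15.1 TPM in HET and at 8.90, 12.4, 14.9 and 26.5 TPM in HOM. The 3 genotypes overlapped at each age. No genotype difference of Gfap had an unadjusted p under 0.05 at either age, and the fitted values ran from -0.57 (HOM against HET at 3 months) to 0.48 (HOM against WT at 17 months).

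The secreted proteins and the metallothionein had their lowest group means in HOM animals at 3 months. At 3 months Clu stood at 51.7, 63.3, 73.5 and 87.0 TPM in WT, at 52.8, 65.5, 80.0 and 161.7 TPM in HET and at 35.8, 40.5, 44.5 and 48.7 TPM in HOM. In the older mice it stood at 66.8, 84.0, 92.8 and 134.6 TPM in WT, at 55.0, 62.1, 76.8 and 76.9 TPM in HET and at 96.1, 99.4, 135.0 and 180.6 TPM in HOM. HOM animals were all below both other groups at 3 months and all above the HET animals at 17 months. HOM against HET of Clu was -0.94 at 3 months (SE 0.28, limma adjusted p = 0.362) and 0.87 at 17 months (SE 0.23, adjusted p = 0.0786).

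Sparcl1 at 3 months stood at 63.9, 85.4, 92.2 and 114.3 TPM in WT, at 69.3, 82.8, 102.5 and 191.9 TPM in HET and at 49.4, 51.1, 63.1 and 66.8 TPM in HOM. At the later age it stood at 79.5, 100.7, 115.6 and 202.7 TPM in WT, at 50.3, 61.6, 62.2 and 62.7 TPM in HET and at 92.1, 104.4, 130 and 151.6 TPM in HOM. HOM animals were below all HET animals at 3 months, and HET animals were below all others at 17 months. HOM against HET of Sparcl1 was -0.84 at 3 months (SE 0.26, limma adjusted p = 0.386) and 0.98 at 17 months (SE 0.24, adjusted p = 0.0557).

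Mt3 at 3 months stood at 26.2, 41.65, 44.3 and 65.1 TPM in WT, at 44.1, 48.8, 62.8 and 123.5 TPM in HET and at 19.5, 23.0, 34.8 and 34.98 TPM in HOM. At 17 months it stood at 45.4, 68.0, 97.4 and 154.9 TPM in WT, at 37.5, 38.7, 64.2 and 74.8 TPM in HET and at 68.3, 71.99, 129.3 and 144.8 TPM in HOM. HOM animals lay below all HET animals at 3 months and overlapped them at 17 months. HOM against HET of Mt3 was -1.20 at 3 months (SE 0.33, limma adjusted p = 0.356) and 0.92 at 17 months (SE 0.36, adjusted p = 0.293).

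Within an age, no member passed the test (limma, adjusted p under 0.05 over all genes kept) in any of the 6 genotype comparisons. At 3 months all 9 fitted differences of HOM against WT were negative, with a median of -0.54 against -0.10 over all 11587 genes, and 0 of 9 were called where 0.0604% of all genes were. At an unadjusted p under 0.05, 4 members were lower (Slc1a3, Aqp4, Clu and Sparcl1), beside 17.1% of all genes. Aqp4 and Clu did not overlap WT, as was true of 15.1% of all genes in that direction. In the same comparison 10 of 11 endothelial markers were lower at an unadjusted p under 0.05 with a median of -1.13, none was called, and their part in the member values was not tested.

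HET against WT at 3 months had 9 positive differences, a median of 0.43 and 0 of 9 called, where 0.0432% of all genes were. None was at an unadjusted p under 0.05, beside 2.35% of all genes higher. The median was 0.19 without HET-8304. HOM against HET at 3 months had 9 negative differences with a median of -0.84, against 0.00 over all genes. None of the 9 was called, beside 0.0259% of all genes, while 8 were lower at an unadjusted p under 0.05, beside 5.26% of all genes. Aldoc, Clu, Mt3 and Sparcl1 did not overlap between HOM and HET, beside 2.85% of all genes lower in that way. The median was -0.62 without HET-8304. At an unadjusted p under 0.05, 6 of 11 endothelial, 4 of 6 mural and 4 of 6 neuron markers were lower as well, with medians of -0.87, -1.04 and -1.06, and none was called.

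At 17 months HOM against WT had 5 positive and 4 negative differences with a median of 0.0033, and 0 of 9 were called, where 0.712% of all genes were. That median was 0.27 without WT-7943 and -0.18 without WT-7785. None was at an unadjusted p under 0.05, beside 18.6% of all genes. HET against WT had 8 negative differences and 1 positive one (Gfap), with a median of -0.51 against -0.01 over all 11792 genes. The median was -0.28 without WT-7943. None was called, beside 0.237% of all genes, and 5 were lower at an unadjusted p under 0.05 (Aldoc, Slc1a2, Slc1a3, Gja1 and Sparcl1), beside 6.49% of all genes. Gja1 and Sparcl1 did not overlap between HET and WT, beside 3.25% of all genes lower in that way. Markers of other cells were lower in the same comparison. Of 10 oligodendrocyte markers 4 were called lower, among them Ermn, Mbp and Mobp, genes of myelinating cells. The median of the 10 was -1.43, and 9 were lower at an unadjusted p under 0.05. Oligodendrocyte marker sums were 2453 to 6653 TPM in WT and 532 to 1374 TPM in HET. Of 11 endothelial markers none was called, 8 were lower at an unadjusted p under 0.05 and the median was -0.49. Of 8 neuron markers none was called, 3 were lower at an unadjusted p under 0.05 and the median was -0.68. The part of these cells in the member values was not tested.

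HOM against HET at 17 months had 9 positive differences with a median of 0.68 against 0.07 over all genes. None was called, beside 1.86% of all genes, while 5 were higher at an unadjusted p under 0.05 (Aldoc, Gja1, Clu, Mt3 and Sparcl1), beside 10.3% of all genes. Gja1, Clu and Sparcl1 did not overlap between HOM and HET, beside 6.68% of all genes higher in that way. The comparisons at one age share animals and are therefore not independent of each other.

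**Figure D2:**
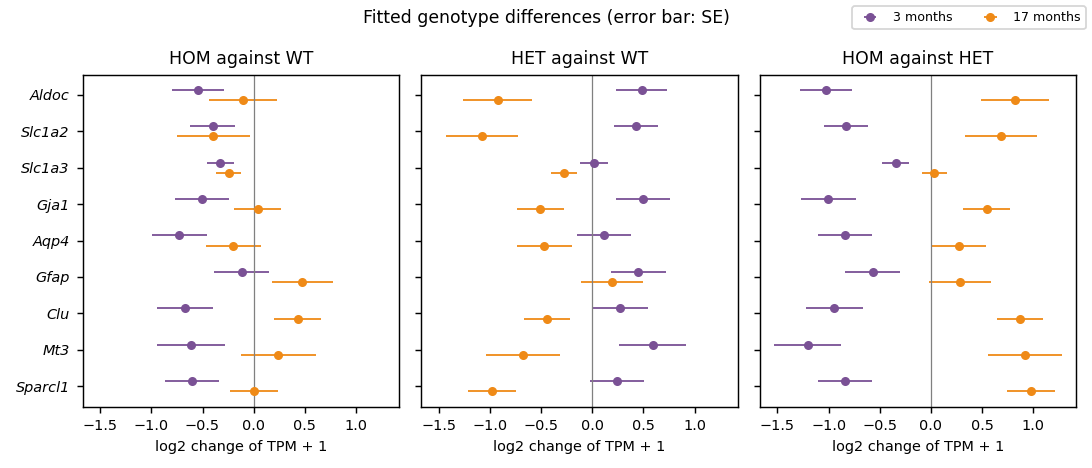
Fitted log2 differences of TPM + 1 for the 9 astrocyte transcripts in 3 genotype comparisons at 3 and 17 months; points are limma estimates and bars are standard errors. In HOM against HET all 9 points lie below 0 at 3 months and above 0 at 17 months.

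Whether the genotype difference changed with age was tested as an interaction over all 24 animals, where each difference is taken within its own table. In HOM against HET the 17-month difference minus the 3-month difference was positive for all 9 members, with a median of 1.55 on the log2 scale against 0.06 over all 11436 genes. It was called for 5 of 9, beside 2.03% of all genes called either way and 1.88% called higher, and 7 had an unadjusted p under 0.05, beside 9.34% of all genes higher. The called members were Sparcl1 (1.82, SE 0.38, limma adjusted p = 0.0299), Clu (1.81, SE 0.38, adjusted p = 0.0301), Gja1 (1.55, SE 0.37, adjusted p = 0.0385), Aldoc (1.85, SE 0.45, adjusted p = 0.0387) and Mt3 (2.12, SE 0.52, adjusted p = 0.0402). The other 4 did not pass, with Slc1a2 at 1.51 (adjusted p = 0.0809), Aqp4 at 1.11 (adjusted p = 0.180), Gfap at 0.85 (adjusted p = 0.478) and Slc1a3 at 0.38 (adjusted p = 0.466).

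Those 5 calls were close to the threshold. All 9 values stayed positive under each alternative and each omission of an animal, but the number of calls fell to 0 when each library was centred on its median or quantile normalized. It was 2 in the RPKM tables, 2 with all genes kept and 2 with a minimum mean of 5 TPM. Leaving out HET-8302, HET-7795, HET-7796, HOM-8282, HOM-8285, HOM-8287 or HOM-7899, left 0 calls. Without HOM-8286 1 call was left, without HET-8304, HET-7794, HOM-7835 or HOM-7901 2 calls were left, and without HET-7791 3 were left. With sex as a term 6 members were called, and only the WT and HOM groups held both sexes. The share of all genes called under each of these settings is not given here.

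The same age difference for HET against WT was negative for all 9 members with a median of -1.0035, and 5 had an unadjusted p under 0.05, beside 5.4% of all genes lower. None was called, beside 0.691% of all genes. For HOM against WT all 9 values were positive with a median of 0.55 against 0.16 over all genes, and none was called, beside 0.254% of all genes. Clu, at 1.10 (SE 0.38, limma adjusted p = 0.108), was the 1 member with an unadjusted p under 0.05, beside 18.4% of all genes higher.

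Single animals carried much of the spread. HET-8304 was the highest of the 12 3-month animals in 8 members, with Slc1a3 highest in HET-8302, and HOM-8282 was the lowest in 8, with Gfap lowest in WT-8326. At 17 months WT-7943 was the highest in 7 members, with Clu and Gfap highest in HOM-7901, and HET-7795 was the lowest in 5. HET-8304 also had the highest summed TPM of its age for oligodendrocyte (2988), choroid plexus and ependyma (3727), neuron (65.9), endothelial (1539) and mural (173) markers. WT-7943 had the highest for oligodendrocyte (6653) and neuron (76.2) markers and the lowest for choroid plexus and ependyma (320). The part of those other cells in the member values was not tested.

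Co-variation was measured within genotype, as the correlation over 12 animals of an age of deviations from genotype means on the log2 scale. P-values come from the exact permutation of animals within genotype and were adjusted over the 72 pairs of both ages. At 3 months all 36 pairs were positive, with a median r of 0.736, and 13 passed an adjusted p under 0.05 (11 by rho). At 17 months 35 of 36 were positive, with a median r of 0.694, and 16 passed (14 by rho). Without the 2 animals farthest from the median of the first gene of a pair, the median r was 0.607 at 3 months and 0.526 at 17 months.

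The closest pair at 3 months was Aldoc with Sparcl1 (r = 0.980, exact permutation p = 3.617e-04, adjusted p = 0.00651; rho = 0.972, exact p = 4.34e-04), at r = 0.944 without its 2 farthest animals. Aldoc with Clu followed (r = 0.952, exact permutation p = 7.957e-04, adjusted p = 0.00868; rho = 0.923, exact p = 9.404e-04), at 0.851 without them. At 17 months Aldoc with Slc1a2 was the closest (r = 0.964, exact permutation p = 6.51e-04, adjusted p = 0.00868; rho = 0.916, exact p = 0.00210), at 0.927 without them. Clu with Mt3 was next (r = 0.953, exact permutation p = 7.234e-05, adjusted p = 0.00260; rho = 0.979, exact p = 1.447e-04), at 0.976 without them, and that p is the smallest the permutation gives.

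Aldoc, Slc1a2, Gja1, Clu, Mt3 and Sparcl1, a grouping made after the values were seen, held most of the correlated pairs. Among them 11 of 15 pairs passed at 3 months and 15 of 15 at 17 months, with r between 0.763 and 0.964 at the later age. Gfap passed with none of its 8 partners at either age, Aqp4 with 0 and 1, and Slc1a3 with 2 and 0. The loosest pair at both ages was Slc1a3 with Gfap, at r = 0.168 at 3 months (exact permutation p = 0.702, adjusted p = 0.722; rho = 0.112, exact p = 0.777) and -0.108 at 17 months (exact permutation p = 0.744, adjusted p = 0.755; rho = 0.0210, exact p = 0.960). Without their 2 farthest animals these were 0.289 and -0.534. Slc1a3 with Mt3 at 3 months (r = 0.260, exact permutation p = 0.525, adjusted p = 0.564; rho = 0.154, exact p = 0.677) and Slc1a2 with Gfap at 17 months (r = 0.0744, exact permutation p = 0.839, adjusted p = 0.839; rho = 0.00699, exact p = 0.991) were next.

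The glutamate transporters passed as a pair at 3 months and not at 17 months. Slc1a2 with Slc1a3 gave r = 0.779 at 3 months (exact permutation p = 0.0200, adjusted p = 0.0496; rho = 0.427, exact p = 0.212) and 0.655 at 17 months (exact permutation p = 0.0633, adjusted p = 0.106; rho = 0.657, exact p = 0.0481). Without the 2 farthest animals r was 0.906 and 0.320. Slc1a3 followed the mean of the other 8 members with a slope of 0.310 at 3 months and 0.250 at 17 months on the log2 scale, the shallowest of the 9 at both ages. Aldoc had a slope of 1.15 and 1.56 and r of 0.972 and 0.953 with that mean. Gfap had a slope of 0.843 and r of 0.707 at 3 months, and a slope of 0.306 and r of 0.241 at 17 months.

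**Figure D3:**
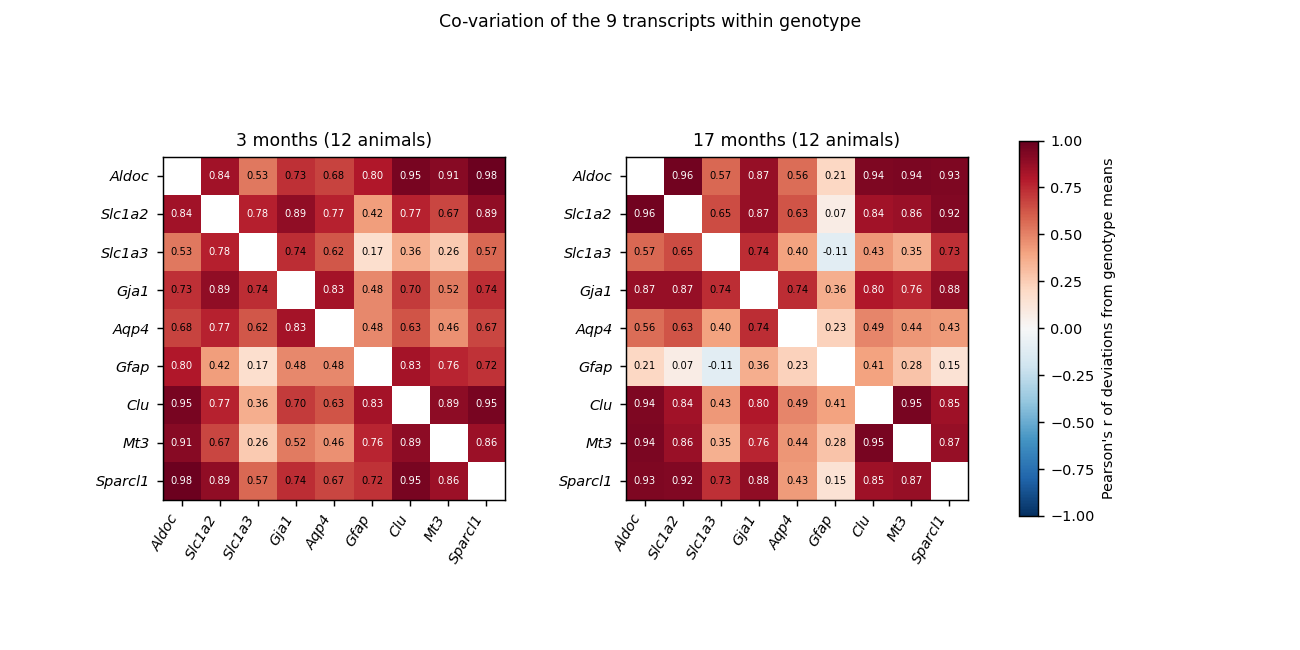
Pearson's r between each pair of the 9 astrocyte transcripts over the 12 animals of an age, computed on deviations from genotype means of log2(TPM + 1). All 3-month cells are positive, and at 17 months the Gfap row is pale, with values from -0.108 to 0.406.

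Proportions between members say how far they rose and fell as one block. At 3 months Sparcl1 kept the steadiest proportion to Aldoc, with the highest animal at 1.45 times the lowest. At 17 months that spread was 1.58-fold for Mt3, 1.63-fold for Slc1a2 and 1.73-fold for Sparcl1. For Slc1a3 it was 3.19-fold at 3 months and 3.32-fold at 17 months, and for Gfap 2.32-fold and 5.69-fold. The ages stand in separate tables, but a proportion within an animal is free of a shift that acts on all genes alike.

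The median Gfap to Aldoc proportion was 0.111 at 3 months and 0.271 at 17 months, and 9 of the 12 animals at 17 months lay above every animal at 3 months. In RPKM it was 0.0756 and 0.188. The genotypes differed in the size of that rise. The Gfap to Aldoc median in TPM went from 0.105 to 0.149 in WT. It went from 0.107 to 0.378 in HET and from 0.140 to 0.281 in HOM. Mt3 to Aldoc had a median of 1.06 at 3 months and 1.57 at 17 months (RPKM 0.587 and 0.955), with 7 of 12 animals at 17 months above every animal at 3 months. The Mt3 to Aldoc median went from 1.07 to 1.29 in WT, from 1.11 to 1.63 in HET and from 1.02 to 1.79 in HOM. Clu to Aldoc went from 1.57 to 1.96 over all animals, with 8 of 12 above every animal at 3 months and 1 (WT-7943, at 1.08) below. That rise was not shared by the WT animals. The Clu to Aldoc median went from 1.6815 to 1.5014 in WT, but from 1.5212 to 2.1652 in HET and from 1.5706 to 2.0777 in HOM. Slc1a2 to Aldoc stood at 0.414 and 0.297, with 8 of 12 below every animal at 3 months. Slc1a3 to Aldoc stood at 1.80 and 1.13 over all animals, and the genotypes differed in direction. Its median went from 1.80 to 1.02 in WT and from 2.03 to 0.974 in HOM, but from 1.40 to 1.77 in HET. Gja1 (0.211 and 0.224) and Sparcl1 (2.05 and 1.94) had near medians. These values describe the tables, and no test was made between ages.

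**Figure D4:**
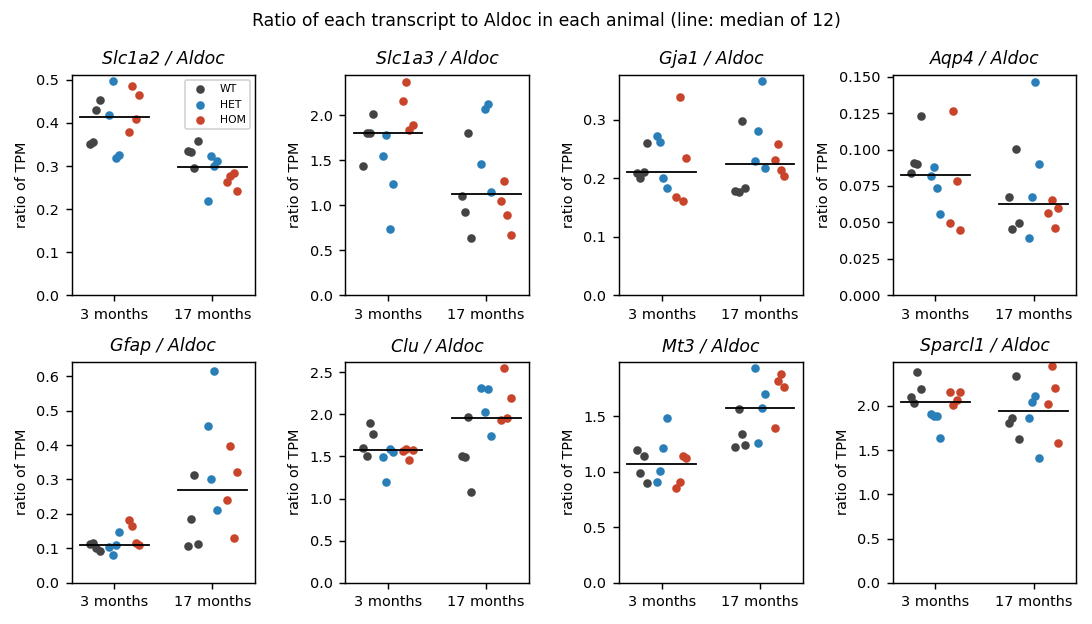
Proportion of each astrocyte transcript to Aldoc within each animal (ratio of TPM, linear axis from 0) at 3 and 17 months; points are animals coloured by genotype and lines are medians of 12. The median for Gfap is 0.111 at 3 months and 0.271 at 17 months, and for Slc1a2 0.414 and 0.297.

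Other genes of astrocytes were taken by symbol from a separate list of 37. Of these, 36 symbols were listed in the tables, 33 kept at 3 months and 35 at 17 months. Within an age, 1 passed any comparison. Slco1c1, a thyroid hormone transporter also made by brain endothelial cells, was at 18.6 ± 1.65 TPM in WT, 13.5 ± 1.10 in HET and 28.8 ± 1.07 in HOM at 17 months (SD, n = 4). It rose in HOM against WT (0.61, SE 0.093, limma adjusted p = 0.0349) and in HOM against HET (1.04, SE 0.093, adjusted p = 2.770e-04). In the age difference of HOM against HET, 33 of 33 were positive and 11 passed, all higher, with a median of 1.39. In the age difference of HET against WT 1 passed, S100b, a calcium-binding protein, at -2.21 (SE 0.48, adjusted p = 0.0308).

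The 2 most abundant genes of that list differed little between genotypes. Glul, glutamine synthetase, had a mean of 1054 TPM at 3 months and 679 TPM at 17 months, and Glud1, glutamate dehydrogenase, 113 and 91.6 TPM. Of their fitted genotype differences within an age, the farthest from 0 was -0.16 on the log2 scale (Glul, HOM against WT at 3 months, SE 0.092, limma adjusted p = 0.341). The third by level, Ndrg2, had differences of the same sign as the members in HOM against HET. It was at 51.2 and 59.7 TPM and had -0.89 for HOM against HET at 3 months (SE 0.28, limma adjusted p = 0.386) and 0.83 at 17 months (SE 0.34, adjusted p = 0.317). Of a list of 11 genes of reactive astrocytes 5 were kept and none was called in any comparison. Its most abundant genes were Lcn2, Vim and Hspb1, of which Lcn2 is also a neutrophil gene. Their 17-month HOM against WT differences were 2.19 (SE 0.83, limma adjusted p = 0.181), 0.67 (SE 0.18, adjusted p = 0.0871) and 0.95 (SE 0.21, adjusted p = 0.0564).

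Marker lists of other cells were set beside the members in the same libraries. In the age difference of HOM against HET, 7 of 11 endothelial and 3 of 6 mural markers were called, all higher, and 0 of 6 neuron, 0 of 10 oligodendrocyte, 0 of 9 choroid plexus and ependyma and 0 of 12 microglia markers. All of the endothelial and mural markers kept were positive, with medians of 1.66 and 2.12. So were all 9 choroid plexus and ependyma markers (median 1.65), 10 oligodendrocyte (0.76), 6 neuron (0.94) and 4 erythrocyte markers (2.45). Of these, 8, 4, 2 and 0 were higher at an unadjusted p under 0.05, beside 9.34% of all genes. Positive differences were seen in 6 of 8 neutrophil (median 0.05) and 2 of 12 microglia markers (-0.20), beside a median of 0.06 over all genes. In HOM against HET at 17 months 9 of 11 endothelial and 5 of 7 mural markers were called higher, and 11 and 6 had positive differences. Endothelial markers summed to 573 to 691 TPM in HOM and 618 to 1539 TPM in HET at 3 months, and to 1327 to 1633 TPM in HOM and 840 to 1069 TPM in HET at 17 months. Mural markers summed to 20.5 to 27.6 TPM in HOM and 19.9 to 173 TPM in HET at 3 months, and to 80.9 to 119 TPM in HOM and 37.9 to 56.7 TPM in HET at 17 months. Their part in the member values was not tested.

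Within genotype the members were also set against the mean of each marker list. The members' r with the mean of the other astrocyte list had a median of 0.850 at 3 months and 0.934 at 17 months, and 5 and 6 of the 9 passed an adjusted p under 0.05 over 252 relations (exact permutation). The median r with endothelial and mural markers was 0.676 (0 of 9 passed) and 0.805 (1 of 9 passed) at 3 months and -0.262 and -0.381 at 17 months, with none passing. For neuron markers it was 0.706 (0 of 9 passed) and 0.815 (4 of 9 passed), and for oligodendrocyte markers 0.682 and 0.582 with none passing. For choroid plexus and ependyma it was 0.764 (1 of 9 passed) and -0.0860 (0 of 9), for neutrophil markers 0.138 and -0.0533 with none passing, and for microglia -0.363 and -0.562, where Mt3 at 17 months passed (r = -0.753, exact permutation p = 0.00101, adjusted p = 0.0213; rho = -0.762, exact p = 0.00810).

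At 3 months several of those relations leaned on few libraries. Without the 2 animals farthest from the median of each list, the median r was 0.794 for other astrocyte genes, 0.387 for neuron, 0.449 for endothelial, 0.620 for mural, -0.0841 for oligodendrocyte and 0.0665 for choroid plexus and ependyma markers. HET-8304 was one of the animals left out for each. For neutrophil markers the median became 0.640, without HET-8309 and WT-8325, and for microglia markers -0.543. At 17 months the same medians were 0.857 for other astrocyte genes, 0.732 for neuron and 0.312 for oligodendrocyte markers, with WT-7943 among those left out. They were -0.28 for endothelial, -0.24 for mural, 0.19 for choroid plexus and ependyma, -0.10 for neutrophil and -0.44 for microglia markers.

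**Figure D5:**
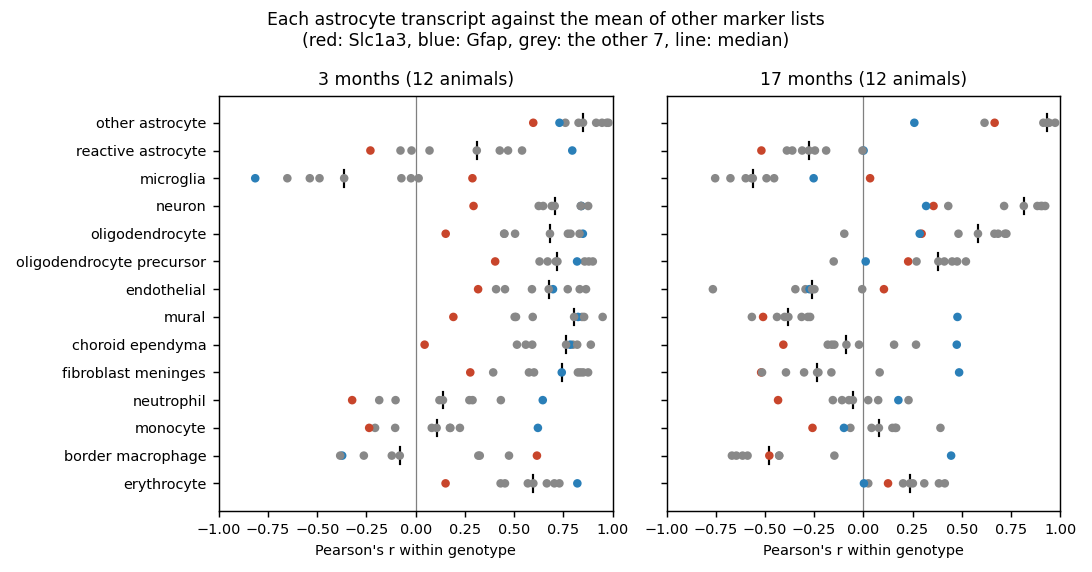
Pearson's r of each of the 9 astrocyte transcripts with the mean of marker lists of other cell types over the 12 animals of each age, on deviations from genotype means; red is Slc1a3, blue is Gfap, and lines are medians. Median r with the other astrocyte list is 0.850 and 0.934, while with mural markers it is 0.805 at 3 months and -0.381 at 17 months.

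Across all genes, those closest to the mean of the 9 members were ranked by the lower of their correlations at the 2 ages, over 12 animals each and 11427 genes. Atp1b2, a subunit of the sodium pump, came first (0.979). Mmd2 (0.965), Ttyh1 (0.961), Scg3 (0.959), Adcyap1r1 (0.957), Gpr37l1 (0.957), Ntrk2 (0.953), Hepacam (0.949) and Ppap2b (0.941) were also among the first 10. Ppap2b is an older symbol of Plpp3, a gene of the other astrocyte list, and under this symbol it was not counted with that list. Of the 33 other astrocyte genes ranked, 20 were among the first 100, and their median r was 0.906 at 3 months and 0.907 at 17 months, against -0.122 and -0.391 over all genes. The libraries differed in depth and composition. The part of those differences in these correlations was not tested, so the correlations are a description. Glul and Glud1 did not follow, at 0.0972 and -0.0158 at 3 months and -0.365 and -0.261 at 17 months.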

How the data were processed

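The authors deposited, for each age, a table of TPM and a table of RPKM. Per the file headers, columns carry animal numbers, and the RPKM headers pair each with a genotype. The headers call 4 animals hemi at 17 months, and these were taken as HET. The submitters' processing notes list mm10, DESeq2, Salmon 0.8.2, Partek 7.17.0918 and TopHat2 2.1.1 without saying which made which table. The deposited TPM columns summed to 78.9% to 90.7% of the unit's total. The tables hold TPM and RPKM, so no count model was used, and the depth of a single gene is unknown.

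A gene entered an age when its 12-animal mean reached 1 TPM, and log2(TPM + 1) was fitted with limma 3.58.1 (R 4.3.3, intensity trend). Benjamini-Hochberg adjustment ran over all genes kept, with a call at an adjusted p under 0.05. A fold change on this scale understates the change of low genes. The age difference was an interaction over 24 animals. The fit of HOM against WT within an age was tested on simulated data, while the age difference and the correlations were not. Pair correlations used 13824 exact permutations within genotype. P-values of the fits rest on the spread between these animals, moderated over genes, and those of the correlations on permuting the animals within genotype. RPKM followed TPM for each member (r from 0.894 to 0.996 over 12 animals).

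The members and lists were chosen with earlier results of these data known. All members are named. Of the other astrocyte and reactive astrocyte lists, genes called within an age and the 3 of highest mean are named, and markers of other cells where a member result moves with them, then the 10 genes most like the members, of which 1 is not reported here, and the 2 closest and loosest pairs of each age. Alternatives were the pseudocount, the filter, RPKM, 2 scalings, a sex term, array weights, a fit of only the genotypes compared, and leaving out each animal.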

Additional observations from a re-analysis of the deposited data

Results flagged for a closer look

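In 54 groups of 4 animals (9 members in 6 groups), a single animal stood apart from the other 3 by Dixon's test at the 95% level in 4 cases, and chance gives about 1 in 20. Gja1 was at 22.92 TPM in WT-7943 at 17 months, where the others were at 9.97, 10.1 and 11.0 TPM. Slc1a3 was at 80.05 TPM in the same animal, where the others were at 57.7, 61.3 and 61.4 TPM. Slc1a3 was at 63.62 TPM in HET-7794, above 48.5, 50.7 and 50.8 TPM. Sparcl1 was at 50.28 TPM in HET-7795, below 61.6, 62.2 and 62.7 TPM.

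The difference of HOM against HET differed between 17 and 3 months for 5 members by the interaction test of limma. The values on the log2 scale were 1.847 for Aldoc (adjusted p = 0.0387), 1.549 for Gja1 (adjusted p = 0.0385), 1.815 for Clu (adjusted p = 0.0301), 2.121 for Mt3 (adjusted p = 0.0402) and 1.823 for Sparcl1 (adjusted p = 0.0299). Over the alternatives and omitted animals the adjusted p ran from 1.731e-04 to 0.0709 for Sparcl1, from 1.845e-04 to 0.0746 for Clu, from 3.218e-04 to 0.0934 for Gja1, from 4.334e-04 to 0.0985 for Aldoc and from 0.00352 to 0.0992 for Mt3.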

How the results depend on the processing

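No paired analysis was possible because the labels number replicates and the columns number animals, with nothing that links the 2. For the count of members called in the age difference of HOM against HET (5), the values were 2 without a filter, 2 with a mean of at least 5 TPM, 2 in RPKM, 0 with median centring and 0 with quantile normalization, and 0 to 6 when each animal was left out. Limma's array weights gave 6, 2 and 9 members for HOM against WT, HET against WT and HOM against HET at 3 months, 3 for HET against WT and 4 for HOM against HET at 17 months, and 1 and 6 for the age differences of HOM against WT and HET against WT, where equal weights gave 0. A sex term gave 1 member for HET against WT and 1 for HOM against HET at 17 months, 4 for the age difference of HET against WT, and a median of 1.33 in place of 0.68 for HOM against HET at 17 months. Fitting only the genotypes compared gave 1 for HOM against HET at 17 months. The share of all genes called under each alternative is not set beside these counts. The counts therefore do not set the members apart from other genes. With each animal left out, counts of 0 became 0 to 1 for HOM against HET at 3 months (1 without HET-8309), 0 to 2 for HET against WT at 17 months (2 without WT-7785) and 0 to 2 for HOM against HET at 17 months (1 without WT-7785, 2 without WT-7943). They became 0 to 1 for the age difference of HOM against WT (1 without HET-8304) and 0 to 2 for that of HET against WT (1 without HET-8309 or HET-7796, 2 without WT-7785). The 13 correlated pairs at 3 months became 23 in RPKM, 33 with genotype means kept, and 8 to 16 with an animal left out (8 without WT-8326), and the 16 at 17 months became 7 to 18 (7 without WT-7943). Values near 0 changed sign. At 17 months HOM against WT became -0.0326 for Gja1 and -0.0691 for Sparcl1 with centring, -0.0302 and -0.0117 with quantile normalization, -0.0186 for Sparcl1 with array weights, and 0.347, 0.0443 and 0.00986 for Aldoc, Slc1a2 and Aqp4 with a sex term. HOM against HET became -0.0478 and -0.0351 for Slc1a3 with centring and quantile normalization and -0.0555 for Gfap with array weights. The age difference of HOM against WT became -0.0270, -0.0346, -0.176, -0.174 and -0.108 for Slc1a2 with a pseudocount of 5, RPKM, centring, quantile normalization and array weights, and -0.101 and -0.0373 for Slc1a3 with centring and quantile normalization. That of HET against WT became 0.103 for Gfap with array weights. With each animal left out, HOM against WT ran from -0.289 to 0.0263 for Gfap at 3 months, and at 17 months from -0.386 to 0.229 for Aldoc, -0.0713 to 0.309 for Gja1, -0.0414 to 0.541 for Mt3 and -0.181 to 0.266 for Sparcl1. HET against WT ran at 3 months from -0.0636 to 0.166 for Slc1a3, -0.121 to 0.326 for Aqp4, -0.0539 to 0.478 for Clu and -0.0557 to 0.430 for Sparcl1, and from -0.0282 to 0.340 for Gfap at 17 months. HOM against HET ran from -0.0255 to 0.120 for Slc1a3 at 17 months, and the age differences from -0.312 to 0.370 for Slc1a2 (HOM against WT) and -0.480 to 0.00593 for Gfap (HET against WT). The causes were not tested.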
